A study of Saccharomyces cerevisiae with 14 samples.

Results

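Budding yeast (Saccharomyces cerevisiae) makes its ribosomes with the help of proteins that process the rRNA precursor and assemble the small and the large subunit in the nucleolus, and 63 genes of this kind are described here. They are the genes with a single annotated symbol that is NOP, UTP or RRP followed by a number, together with GAR1, PWP2, BUD23, NSR1, EBP2, BRX1, MAK16, DIP2, ENP1 and ENP2. The rule uses names only, not measured values, but it was set with earlier results of these data known. They are 63 of the 5449 S. cerevisiae genes with a probe set on the Affymetrix Yeast 2.0 array, and all 63 are among the 5415 genes bright enough to be tested. By role, 3 encode core proteins of the box C/D small nucleolar ribonucleoprotein (snoRNP) and 2 those of the box H/ACA snoRNP. A further 6 belong to each of the UTP-A and UTP-B complexes and 2 to UTP-C, all parts of the small subunit processome. The rest are 20 other small subunit factors, 17 large subunit factors and 7 exosome subunits.

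RNA polymerase I transcribes a long precursor that contains several of the rRNAs. Box C/D snoRNPs methylate it and box H/ACA snoRNPs convert uridines to pseudouridines. The small subunit processome, built from UTP-A, UTP-B, UTP-C and the U3 snoRNP, folds and cleaves the part that becomes the small subunit, other factors do the same for the large subunit, and the exosome trims and degrades RNA from the 3′ end. In budding yeast these genes are known as one of the most tightly co-regulated groups, high in fast growth and low under stress.

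The study asked which effects of Jhd2, the demethylase of lysine 4 of histone H3 (H3K4), go through that mark, and set it beside Set1, the H3K4 methyltransferase. RNA from cultures grown at 30 °C from an optical density of 0.2 to between 0.6 and 0.7, over 3 to 5 hours, was hybridised to 14 arrays in 3 experiments, each with its own wild type. All 3 wild types are labelled with the alleles his3∆1, le2∆0, lys2∆0 and ura3∆0 and as TRP+, MET15+ and ADE+. The SET1 experiment has 2 arrays of this wild type and 2 of a strain labelled set1::KanMx with his3-1, leu2-0, met15-0 and ura3-0, so the deletion strain also differs from its control in the labelled MET15 and LYS2 alleles. The JHD2 deletion experiment has 3 wild-type arrays and 3 of a strain with the same 4 auxotrophic alleles and jhd2::KanMX. The overexpression experiment has 2 wild-type arrays and 2 of a strain that carries both the jhd2∆::KanMx cassette and JHD2 overexpression, with his3-1, leu2-0, lys2-0 and ura3-0. The labels name neither the growth medium nor the promoter that drives JHD2 in that strain. The labels call the replicates biological and say nothing further of separate cultures, so p-values measure only the spread between these arrays.

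The targeted genes went with the labels. The signal of SET1 was 1.13 and 3.31 on the 2 set1 deletion arrays and 395.4 to 701.2 on the other 12 arrays. That of JHD2 was 0.23 to 3.41 on the 3 jhd2 deletion arrays, 5207 and 6237 on the overexpression arrays and 118.8 to 226.3 on the other 9. The 4 arrays of the SET1 experiment carried signals of a-specific genes (median 1008 to 1187, against 25.6 to 70.2 on the other 10 arrays), and the other 10 those of alpha-specific genes (median 2686 to 3792, against 114.4 to 136.1), although the wild types have the same label. On 4 arrays, the 2 overexpression arrays and those numbered 3 in the JHD2 deletion experiment, the 3′/5′ ratio of 7 control transcripts was 1.33 or more on the log2 scale, against 0.54 to 0.88 on the other 10. This ratio compares probes at the 3′ end of an RNA, where labelling starts, with probes at its 5′ end.

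All 63 genes were above background on all 14 arrays. Background was the 95th percentile of the fission yeast probe sets of an array, 7.28 to 16.7, and the lowest signal of any of the 63 genes was 153.2, for RRP36 on replicate 2 of the wild type of the SET1 experiment. Signals are MAS5 intensities scaled by the authors to a common mean per array, so a lower share of the RNA and a lower amount per cell cannot be told apart. Over the 6 groups, 42 of the 63 genes had their lowest mean in the JHD2 overexpression strain, where 23.5% of all tested genes had theirs. Another 13 had it in the wild type of the SET1 experiment (15.2% of all genes), 6 in the wild type of the overexpression experiment and 2 in the jhd2 deletion. The highest mean was in the jhd2 deletion for 20 genes (10.3% of all genes had theirs there), in its wild type for 17 (9.47% of all genes) and in the set1 deletion for 17 (18.3% of all genes).

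**Figure D1:**
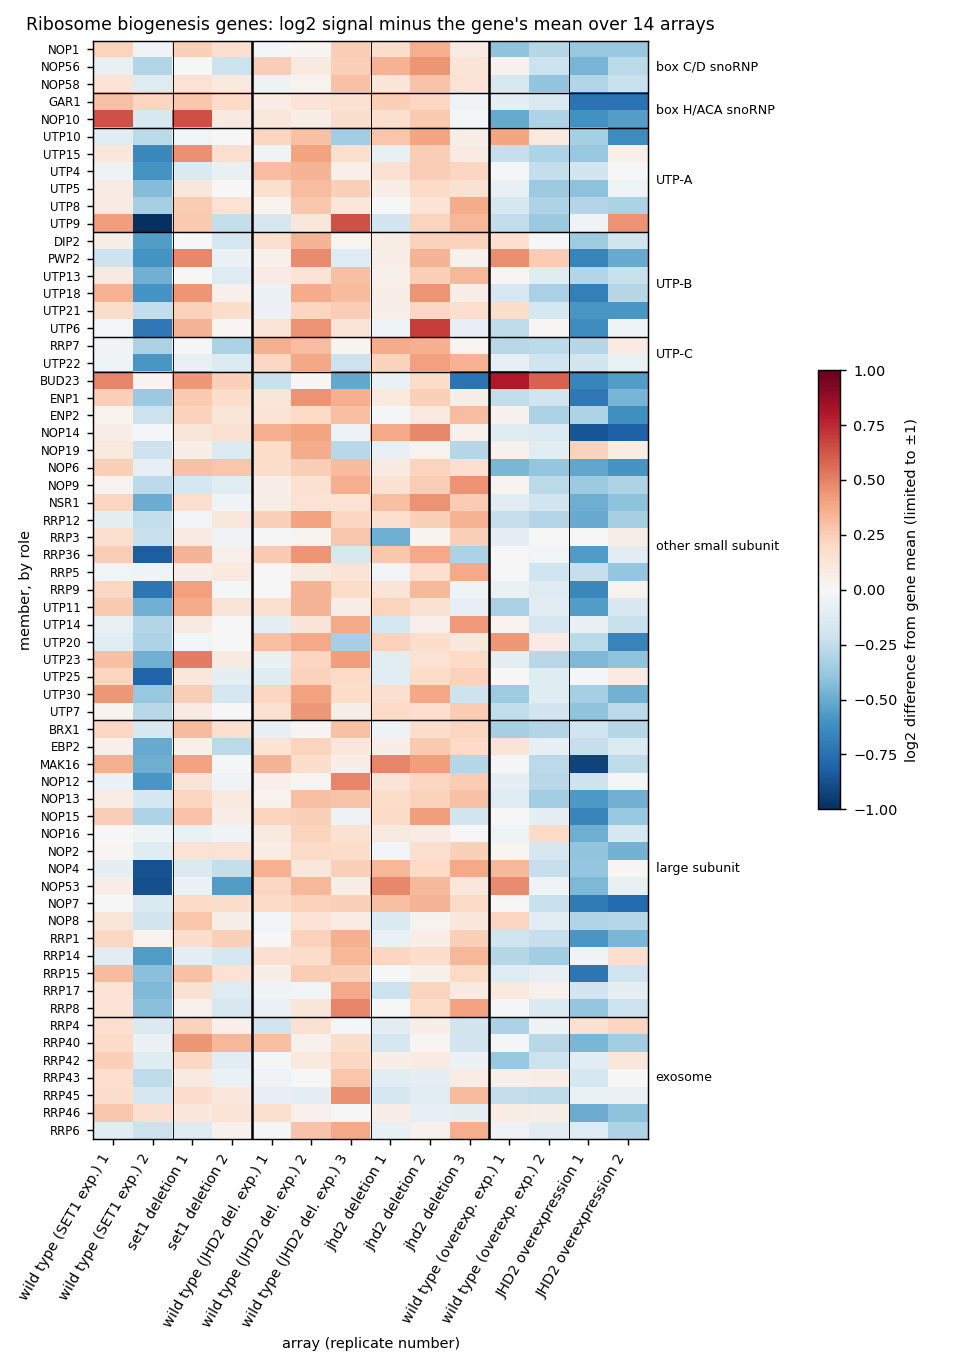
Log2 signal of each of the 63 genes (rows, grouped by role) on each of the 14 arrays (columns), minus the gene's mean over the arrays, with colours limited to 1 on either side of 0. Blue columns stand out at replicate 2 of the wild type of the SET1 experiment and at both JHD2 overexpression arrays, and BUD23 is darkest red on the 2 wild-type arrays of the overexpression experiment.

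The genes moved together from array to array, and not only with genotype. The median of the 63 genes, each taken relative to its own mean over the 14 arrays, was -0.38 and -0.27 on the log2 scale on the overexpression arrays and -0.07 and -0.19 on their wild-type arrays. In the SET1 experiment it was 0.12 and -0.30 on the wild-type arrays and 0.17 and 0.02 on the deletion arrays, so the 2 wild-type arrays lay further apart than the 2 groups. In the JHD2 deletion experiment it was 0.08, 0.22 and 0.19 in the wild type and 0.07, 0.21 and 0.15 in the deletion. Genes of the general stress response, a list of 30 such as HSP12 and CTT1, had a median of the opposite sign on 12 of the 14 arrays. The exceptions were replicate 2 of the set1 deletion and replicate 3 of the jhd2 deletion, where both medians were above 0. Their median was -0.99 and 0.83 on the SET1 experiment's wild-type arrays, -0.78 and 0.23 on the set1 deletion arrays, 0.61 and 0.67 on the wild-type arrays of the overexpression experiment and 1.21 and 0.75 on the overexpression arrays. In the JHD2 deletion experiment it was -0.02, -0.70 and -0.39 in the wild type and -0.26, -1.23 and 0.03 in the deletion. The part of the stress genes' shift in the values below was not tested.

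**Figure D2:**
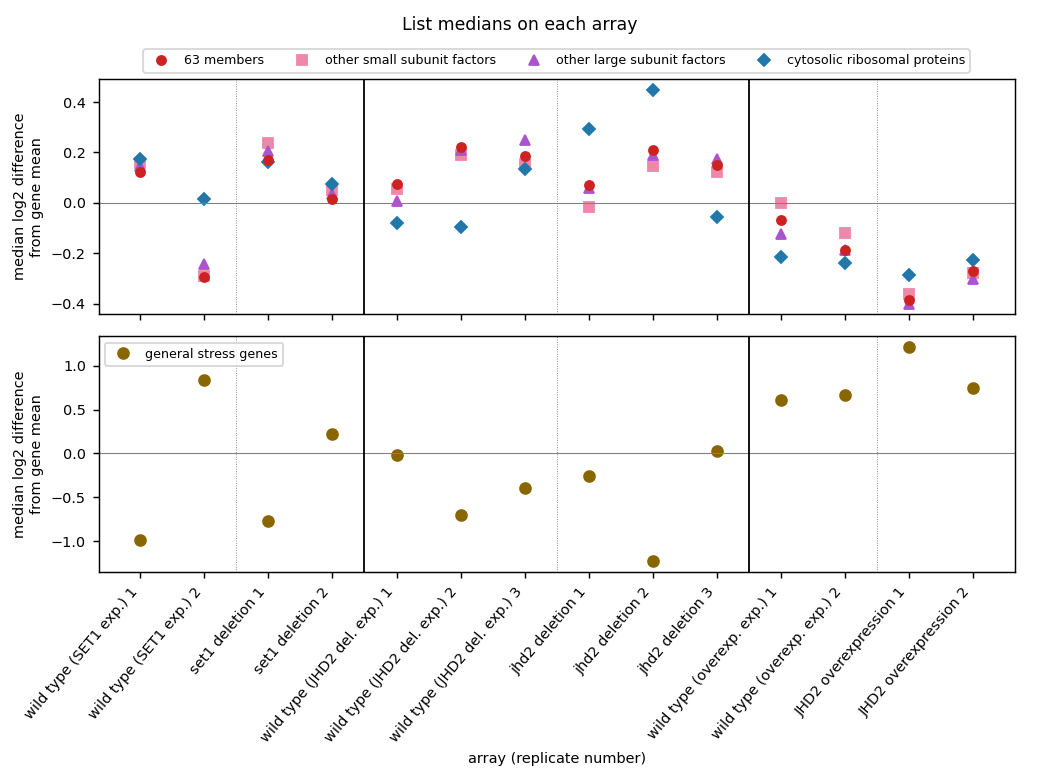
Median log2 difference from each gene's mean over the 14 arrays, by array and replicate number, for the 63 ribosome biogenesis genes, other small and large subunit factors and cytosolic ribosomal proteins (upper panel) and for 30 general stress genes (lower panel, wider axis). The 63 genes lie at -0.30 on replicate 2 of the wild type of the SET1 experiment, where the stress genes lie at 0.83, and at -0.38 and -0.27 on the overexpression arrays, where the stress genes lie at 1.21 and 0.75.

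In the JHD2 overexpression strain, 2 of the 63 genes fell against the wild type of the same experiment at an adjusted p under 0.05 (limma, Benjamini-Hochberg over all tested genes), and none rose. That is 3.17% of the 63 genes, while 0.517% of all tested genes were called (28 genes) and 0.351% were called lower (19 genes). Both lost about the same amount. GAR1, a core protein of the box H/ACA snoRNP, had signals of 2727 and 2722 on the overexpression arrays and 4239 and 4110 on the wild-type arrays. It fell by 0.62 on the log2 scale (standard error 0.10, 1.53-fold lower, adjusted p 0.0340). NOP7, the yeast pescadillo protein of large subunit assembly, had 1232 and 1174 against 1998 and 1720. It fell by 0.62 (standard error 0.11, 1.54-fold lower, adjusted p 0.0340). On the other 10 arrays GAR1 lay between 4410 and 5572 and NOP7 between 1817 and 2545, so the overexpression arrays were the lowest of all 14 for both genes.

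These calls varied with which of the 14 arrays entered the fit. With the arrays of the overexpression experiment alone, both genes were called. In that fit 12 ribosome biogenesis genes passed (19.0%, against 17.6% of all tested genes). With the arrays left out 1 at a time, the call of GAR1 was lost without any of 8 arrays: the 2 of the set1 deletion, the 4 of the overexpression experiment, and replicates 1 and 2 of the wild type of the JHD2 deletion experiment. The call of NOP7 was lost without any of the same 8 and without replicate 1 of the jhd2 deletion. Over all 26 alternative settings the change of GAR1 stayed between -0.71 and -0.56 (adjusted p 0.000225 to 0.290) and that of NOP7 between -0.73 and -0.52 (adjusted p 0.00124 to 0.337).

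The group as a whole, GAR1 and NOP7 included, leaned the same way, while no other gene of it passed the test. Of the 63 genes, 48 had a change below 0 (76.2%, against 49.9% of all tested genes), and the median change was -0.21 on the log2 scale, against 0.00 for all genes. At an unadjusted p under 0.05 there were 13 lower genes (20.6%, against 11.1% of all genes) and 2 higher ones (3.17%, against 8.27%). The 2 overexpression arrays lay below both wild-type arrays for 36 genes (57.1%, against 31.9%) and above both for 8 (12.7%, against 31.1%). Set array against array, the median of the 63 genes was -0.36, -0.21, -0.19 and -0.07 for the 4 pairings, so its sign was the same in all 4.

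Among the snoRNP proteins, GAR1 stood apart from its partner NOP10, whose change was -0.17. The 3 box C/D proteins were close to 0 or lower. NOP1, the yeast fibrillarin that methylates rRNA, had 3661 and 3672 against 3604 and 3906, which overlap, and a change of -0.03 ± 0.13 (standard error). NOP56 and NOP58, its scaffold partners, had changes of -0.28 and 0.02.

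The 6 UTP-B genes all had changes below 0, from -0.94 to -0.21, and none passed the test. PWP2, a WD-repeat protein of UTP-B, had the largest. Its signals were 658.1 and 735.3 against 1439 and 1244, which do not overlap, for a change of -0.94 ± 0.23 (adjusted p 0.0851). UTP21 followed with -0.59, then DIP2 with -0.36 and UTP18 with -0.24. The 6 UTP-A genes were split, with 3 below and 3 above 0. UTP10, a large HEAT-repeat protein, had 1139 and 927.0 against 1886 and 1537, a change of -0.73 ± 0.20 (adjusted p 0.116). UTP9 had the highest change of all 63 genes, with 1300 and 1825 against 1126 and 1035, but its arrays differed so much that the value was 0.51 ± 0.42 (adjusted p 0.520). Both UTP-C genes were above 0, with RRP7 at 0.17 and UTP22 at 0.02.

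Of the 20 other small subunit factors, 17 had changes below 0. BUD23, the methyltransferase that modifies a guanine of the small subunit rRNA, had the lowest change of all 63 genes. Its signals were 333.2 and 356.5 on the overexpression arrays and 915.2 and 791.4 on the wild-type arrays, a change of -1.30 ± 0.27 (2.47-fold lower, adjusted p 0.0579). It missed the threshold although its groups are far apart. BUD23 was also the gene whose wild-type level varied most between experiments, as given below. NOP14 and UTP20, both large scaffold proteins of the small subunit processome, had changes of -0.71 (adjusted p 0.0851) and -0.72 (adjusted p 0.131). NSR1, the yeast nucleolin, had 2687 and 2833 against 3481 and 3290, which do not overlap, for -0.29 ± 0.18. The highest of this set was NOP19, with 416.2 and 374.0 against 366.5 and 328.2 and a change of 0.19 ± 0.21.

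Of the 17 large subunit factors, 14 had changes below 0. Besides NOP7, the lowest were NOP53 (-0.48), NOP15 (-0.47) and MAK16 (-0.45), none of which passed the test. EBP2, which acts with BRX1 in large subunit assembly, had 1365 and 1459 against 1752 and 1514, a change of -0.21 ± 0.17. RRP14 went the other way, with 1220 and 1402 against 1027 and 990.4, a change of 0.38 ± 0.15 (adjusted p 0.208). The exosome subunits were mixed, with 4 below 0 and 3 above. RRP46, a subunit of the exosome ring, had a change of -0.52 ± 0.11 (adjusted p 0.0579). RRP4, which caps the ring, had 957.0 and 1001 against 692.9 and 831.8, a change of 0.37 ± 0.16 (adjusted p 0.247). RRP42, another ring subunit, had 1246 and 1444 against 1029 and 1151, a change of 0.30 ± 0.16.

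**Figure D3:**
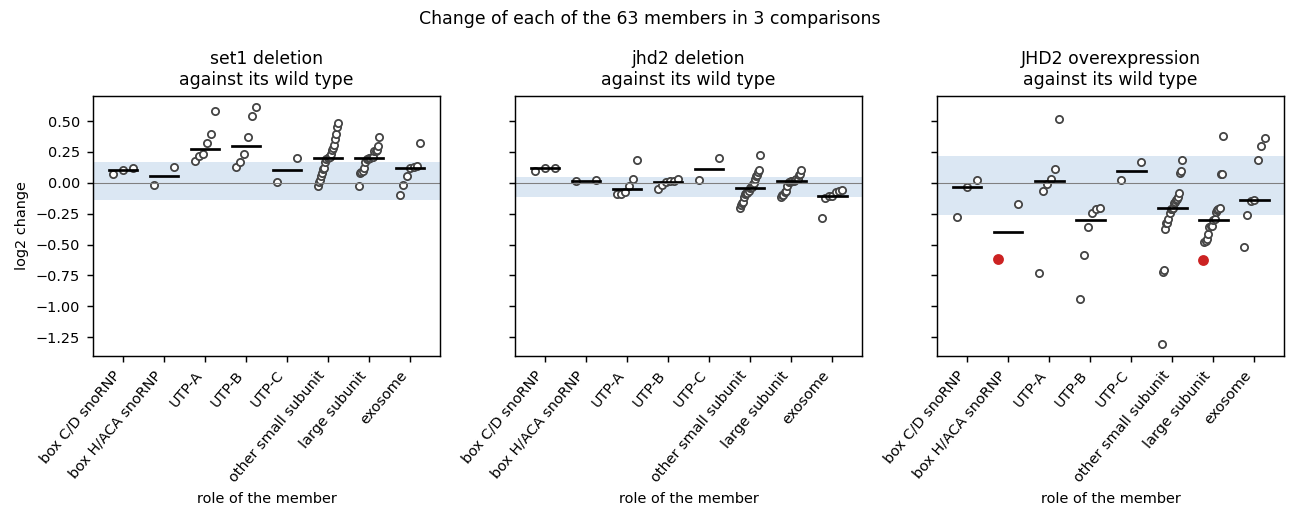
Log2 change of each of the 63 genes (points) by role in the 3 comparisons, with the median of each role as a line and the middle 50 percent of all 5415 tested genes as a blue band. Filled red points passed an adjusted p under 0.05, which only GAR1 and NOP7 did, both lower in the JHD2 overexpression strain.

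**Figure D4:**
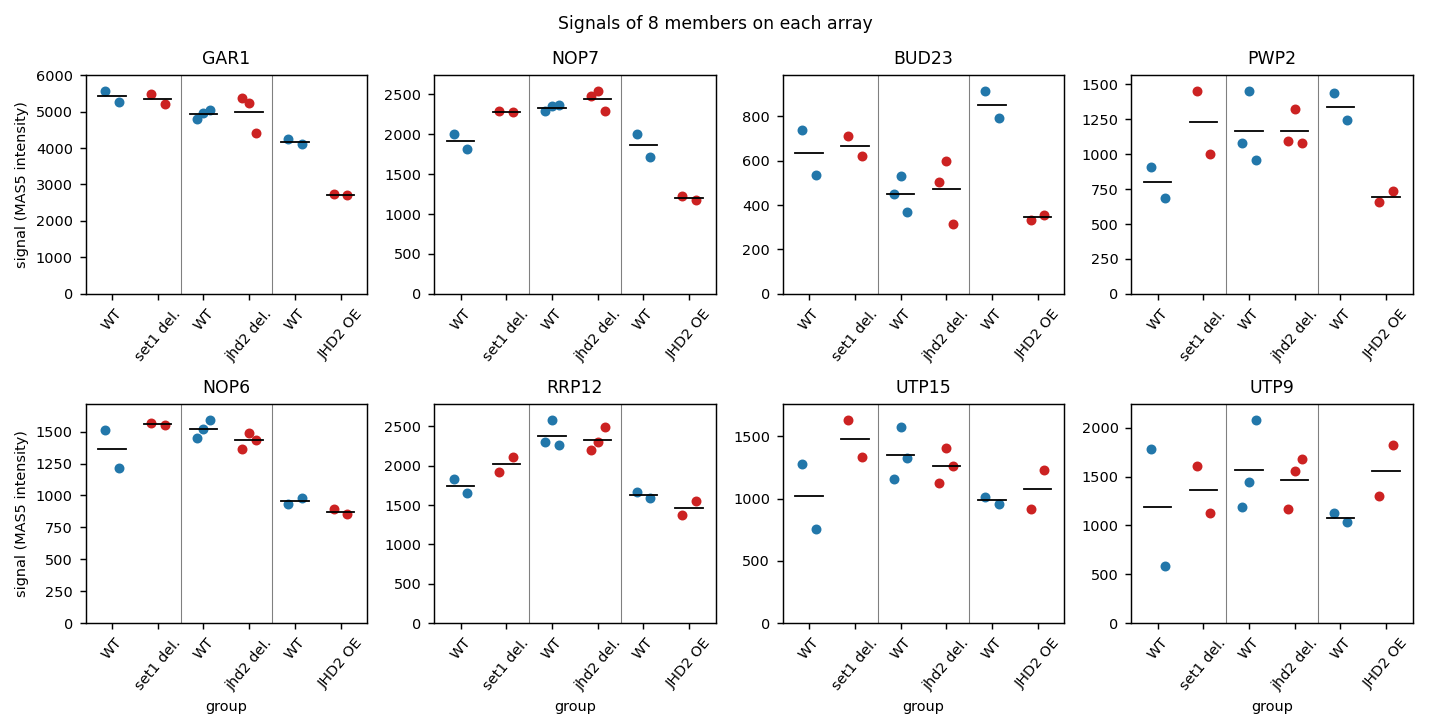
MAS5 signal on each array (points, axis from 0) and group mean (line) of 8 of the genes, with the SET1 experiment at the left, the JHD2 deletion experiment in the middle and the overexpression experiment at the right of each panel, wild types in blue and altered strains in red. GAR1 and NOP7 are lowest on the 2 overexpression arrays, BUD23 is highest on the 2 wild-type arrays beside them, and UTP9 has a wide spread within groups.

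The 2 overexpression arrays share their high 3′/5′ ratio with both arrays numbered 3 in the JHD2 deletion experiment, in which JHD2 is not overexpressed. The difference between replicate 3 and replicates 1 and 2 of that experiment was therefore set beside the overexpression change. It was -0.61 on the log2 scale for BUD23, -0.58 for RRP36, -0.46 for MAK16, -0.44 for UTP10, -0.41 for NOP14, -0.39 for NOP15 and -0.39 for UTP20, whose overexpression changes were also below 0. It was 0.49 for UTP9 and 0.50 for RRP45, whose overexpression changes were above 0. Others went opposite ways, with -0.41 for NOP19 beside an overexpression change of 0.19, 0.42 for UTP14 beside -0.08 and 0.38 for RRP8 beside -0.22. These are the 12 genes with the largest replicate 3 difference, and the signs matched for 9 of them and for 35 of all 63 genes. For the called genes it was small, at -0.11 for GAR1 and -0.05 for NOP7, and for PWP2 it was -0.27. Across the 63 genes the 2 differences correlated with r = 0.49 and Spearman's rho = 0.39, and across all 5415 genes with r = 0.58 and rho = 0.58. These are descriptions over genes that share their arrays, and no test was made. BUD23 was the 1 gene of the 63 (1.59%, against 5.41% of all tested genes) whose signal on these 4 arrays, 314.8 to 368.6, lay below all other 10, 452.0 to 915.2. With the ratio as a covariate in the fit, the median change of the 63 genes was -0.25, GAR1 stood at -0.56 and NOP7 at -0.62, neither passing the threshold (adjusted p 0.0701 and 0.0520). BUD23 was then at -0.92, UTP10 at -0.43, NOP14 at -0.41 and UTP9 at 0.02.

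**Figure D5:**
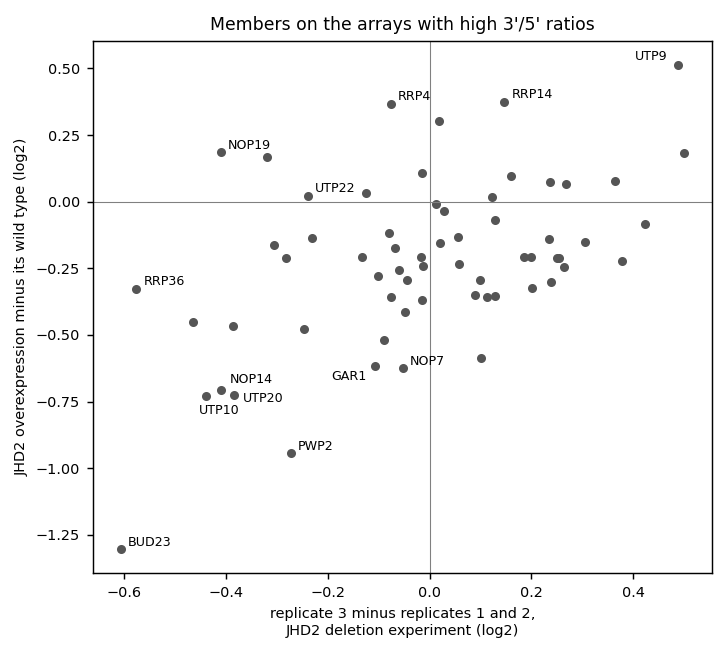
Change of each of the 63 genes with JHD2 overexpression (vertical axis, log2) against its difference between replicate 3 and replicates 1 and 2 of the JHD2 deletion experiment (horizontal axis, log2), each point a gene. BUD23 lies at the lower left (-0.61 and -1.30) and UTP9 at the upper right (0.49 and 0.51), while GAR1 and NOP7 lie near 0 on the horizontal axis.

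In the set1 deletion none of the 63 genes passed the limma test, and 0.259% of all tested genes did (14 genes). The lowest adjusted p was 0.422, for PWP2. At an unadjusted p under 0.05 there were 4 genes, all higher (6.35%, against 8.33% of all genes in either direction and 4.47% higher). The direction was one-sided even so. Of the 63 genes, 58 had a change above 0 (92.1%, against 54.8% of all genes), and the median change was 0.20, against 0.02 for all genes.

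That direction rests on 1 array. Without replicate 2 of the wild type the median change was -0.032, with 24 of the 63 genes above 0, and without replicate 1 of the wild type it was 0.39, with 61 above 0. Replicate 2 of the deletion set against replicate 1 of the wild type gave a median of -0.10, with 19 genes higher, and against replicate 2 of the wild type 0.32, with 61 higher. Without replicate 1 of the deletion the median was 0.13, with 47 genes above 0, and without both replicate 2 arrays it was 0.02, with 39 above 0. The median standard deviation of the 63 genes between the 2 wild-type arrays was 0.29 on the log2 scale, against 0.18 for all genes. Between the 2 deletion arrays it was 0.11 for both. The 2 deletion arrays lay above both wild-type arrays for 17 of the 63 genes (19.4% of all genes did) and below both for 1, RRP46 (1.59%, against 17.0%).

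UTP-A and UTP-B held the 3 highest values, and all 12 of their genes were above 0. PWP2 had 1455 and 1002 in the set1 deletion against 907.0 and 689.5, which do not overlap, a change of 0.61 ± 0.23 (unadjusted p 0.0190). UTP15 of UTP-A had 1632 and 1334 against 1279 and 758.6, a change of 0.58 ± 0.24 (adjusted p 0.502). UTP6 of UTP-B had 1057 and 843.8 against 828.3 and 509.3, a change of 0.54 ± 0.30 (adjusted p 0.710). In all 3 the lowest array was replicate 2 of the wild type. The same array was lowest for RRP36, a processome factor, with 342.5 and 280.1 against 321.5 and 153.2 (0.48 ± 0.34), and for RRP9, a protein of the U3 snoRNP, with 922.0 and 682.6 against 797.2 and 419.8 (0.46 ± 0.29). In both of these the groups overlap.

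The snoRNP core genes had changes near 0 in the set1 deletion. NOP1 had 5607 and 5341 against 5561 and 4641 (0.11 ± 0.13), and GAR1 had 5486 and 5203 against 5572 and 5263 (-0.02 ± 0.10). BUD23 had 709.6 and 619.3 against 736.5 and 535.8 (0.08 ± 0.27), NSR1 4226 and 3663 against 4354 and 2669 (0.21 ± 0.18) and EBP2 1662 and 1331 against 1659 and 1127 (0.12 ± 0.17). The 5 genes below 0 were RRP46, with 1082 and 1103 against 1213 and 1131 (-0.10 ± 0.11), NOP16 (-0.03), NOP9 (-0.03), GAR1 (-0.02) and RRP42 (-0.01). NOP16, a large subunit factor, had 1225 and 1247 against 1282 and 1242, and NOP9, an RNA-binding small subunit factor, 782.5 and 815.1 against 903.8 and 735.5. In every one of them the change was within its standard error.

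Without Jhd2, too, none of the 63 genes passed the limma test, and 0.0369% of all tested genes did (2 genes, or 4 with the replicate numbers as a block). The count over all genes depended on the setting. It was 231 (4.27%) with array weights and 169 (3.12%) without both arrays numbered 3, again with 0 of the 63 genes. At an unadjusted p under 0.05 in the reported fit there was 1 gene of the 63, RRP40 (1.59%, against 1.83% of all genes). The changes lay between -0.29 and 0.22, with 30 above 0 (47.6%, against 37.2% of all genes) and 33 below, and a median of -0.01, against -0.04 for all genes. For 3 genes (4.76%, against 4.78% of all genes) the 3 deletion arrays did not overlap the 3 wild-type arrays, which is the background share. They were NSR1 on the higher side and RRP40 and NOP16 on the lower. The median of the 63 genes within the 3 same-numbered pairs was -0.02, -0.01 and -0.08. With each array centred on its median the median change was 0.062 and 43 genes were above 0, so the balance between higher and lower genes depends on the scaling.

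NSR1 had 4641, 5127 and 4493 in the jhd2 deletion against 3932, 4154 and 4126, a change of 0.22 ± 0.14. Each deletion array was above each wild-type array. UTP22 had 1540, 1750 and 1682 against 1527, 1730 and 1137, where replicate 3 of the wild type lay far below the other 5 arrays, and a change of 0.20 ± 0.16. The same held for UTP10, with 1743, 1889 and 1495 against 1667, 1764 and 1132 (0.19 ± 0.17), and in both cases that low array is 1 of the 2 with a high 3′/5′ ratio in this experiment. The 3 box C/D genes were all above 0, between 0.09 and 0.12. NOP1 had 5374, 6121 and 5033 against 4703, 4849 and 5654 (0.12 ± 0.10) and NOP56 4562, 4876 and 3918 against 4248, 3820 and 4218 (0.12 ± 0.12), and both overlap.

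The 7 exosome genes were all below 0 in the jhd2 deletion, between -0.29 and -0.06, in a comparison where 62.8% of all tested genes were below 0. RRP40, which with RRP4 belongs to the cap of the exosome, had 1213, 1386 and 1193 against 1679, 1406 and 1538, which do not overlap, a change of -0.29 ± 0.12 (unadjusted p 0.0307, adjusted p 1.00). NOP19 had 337.0, 364.9 and 291.0 against 404.1, 458.8 and 293.8 (-0.20 ± 0.17), and ENP1, a factor of the early small subunit precursor, 1123, 1242 and 1098 against 1141, 1437 and 1351 (-0.18 ± 0.15). The genes that led with overexpression were near 0 here. GAR1 had 5361, 5233 and 4410 against 4786, 4961 and 5043 (0.02 ± 0.09), PWP2 1095, 1322 and 1078 against 1082, 1451 and 958.1 (0.02 ± 0.18) and BUD23 502.3, 598.3 and 314.8 against 452.0, 532.8 and 368.6 (0.03 ± 0.22). EBP2, at 1679, 1921 and 1830 against 1759, 1867 and 1736, had 0.02 ± 0.14.

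The 3 changes were then tested against each other as differences, over arrays that the 3 comparisons do not share. For 1 of the 63 genes, NOP7, the change with set1 deletion differed from that with JHD2 overexpression (1.59%, against 0.259% of all tested genes). NOP7 had 2295 and 2274 in the set1 deletion against 2005 and 1817, a change of 0.26 ± 0.11, and the difference from its change with overexpression was 0.88 ± 0.15 on the log2 scale (adjusted p 0.0410). This call was lost on leaving out any 1 of 11 arrays, all but replicate 1 of the wild type of the SET1 experiment and both arrays numbered 3 in the JHD2 deletion experiment, and on centring each array on its median. Its adjusted p over 24 alternatives was 0.00477 to 0.234, and its value 0.78 to 0.99. The difference was larger but less certain for PWP2, at 1.55 ± 0.32 (adjusted p 0.0813), and for GAR1 it was 0.60 ± 0.15 (adjusted p 0.145). Both are values that missed the threshold. Of the 63 genes, 44 (69.8%, against 26.6% of all tested genes) were above 0 in the set1 deletion and below 0 with overexpression. Given that the set1 direction turned without 1 wild-type array, this count rests on that array as well.

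Between the jhd2 deletion and JHD2 overexpression no gene of the 63 differed past the threshold, and 0.0923% of all genes did. At an unadjusted p under 0.05 there were 11 of the 63 (17.5%, against 11.7% of all genes). NOP7, with 2476, 2545 and 2291 in the jhd2 deletion against 2288, 2353 and 2364, came nearest, with a difference of 0.68 ± 0.14 (adjusted p 0.170). GAR1 followed with 0.63 ± 0.13 (adjusted p 0.198) and BUD23 with 1.33 ± 0.35 (adjusted p 0.285). Between the set1 and the jhd2 deletion again no gene of the 63 differed past the threshold (0.0739% of all genes did), and 2 had an unadjusted p under 0.05 (3.17%, against 4.56%). The smallest p was that of RRP40, with 1857 and 1718 in the set1 deletion against 1560 and 1312 (0.32 ± 0.14) and a difference of 0.61 ± 0.18 (adjusted p 0.740). UTP15, with 1129, 1410 and 1259 in the jhd2 deletion against 1159, 1572 and 1325, had a difference of 0.67 ± 0.31.

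Levels of some of these genes differed between the 3 wild types, though a smaller share of them was called than of all genes (14.3%, against 18.4%). Against the wild type of the JHD2 deletion experiment, the wild type of the overexpression experiment had 8 of the 63 genes called (12.7%, against 16.3% of all tested genes), 7 of them lower (11.1%, against 5.50%) and 1 higher (1.59%, against 10.7%). The median of the 63 genes was -0.29, against 0.07 for all genes, and 58 were below 0 (92.1%, against 43.7%). Differences between the experiments and between the strains cannot be told apart here. The comparison also shares arrays with the overexpression comparison above, since both use the wild type of that experiment.

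NOP6, a small subunit factor that binds RNA, had 934.1 and 980.8 in the wild type of the overexpression experiment against 1448, 1519 and 1591, a difference of -0.67 ± 0.11 (adjusted p 0.00228), and was called under each of 23 alternatives. Its signals in the overexpression strain, 894.3 and 851.0, were close to those of its own wild type, at a change of -0.13. RRP12, a HEAT-repeat export and assembly factor, had 1662 and 1591 against 2303, 2582 and 2266 (-0.55 ± 0.11, adjusted p 0.00569), a call lost without replicate 2 of the wild type of the overexpression experiment. RRP14 had 1027 and 990.4 against 1404, 1424 and 1577 (-0.54 ± 0.14, adjusted p 0.0197). NOP13, a nucleolar RNA-binding protein, had 1787 and 1529 against 1997, 2397 and 2364 (-0.44 ± 0.12, adjusted p 0.0284), and NOP1 had 3604 and 3906 against 4703, 4849 and 5654 (-0.43 ± 0.12, adjusted p 0.0275). In all of these the 2 groups do not overlap, which held for 40 of the 63 genes (63.5%) and for 54.6% of all tested genes.

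UTP7, a WD-repeat protein of the processome, had 890.1 and 928.2 against 1173, 1429 and 1104 (-0.43 ± 0.13, adjusted p 0.0434), and NOP7 1998 and 1720 against 2288, 2353 and 2364 (-0.33 ± 0.10, adjusted p 0.0401). BUD23 was the 1 gene higher, with 915.2 and 791.4 against 452.0, 532.8 and 368.6 (0.93 ± 0.25, adjusted p 0.0254). Leaving out either wild-type array of the overexpression experiment ended the calls of BUD23, NOP1, NOP13, RRP14, NOP7 and UTP7. The calls of BUD23, NOP1, NOP13, RRP14 and NOP7 were also lost without replicate 3 of the other wild type, those of NOP1, NOP13, NOP7 and UTP7 without its replicate 2, and those of BUD23, NOP7 and UTP7 without its replicate 1. Those of NOP7 and UTP7 were lost without most arrays, 10 of 14 each. Of the 30 stress genes, 28 were above 0 in the same comparison, with a median of 1.09 and 7 called, HSP12 at 3.35 among them.

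The wild type of the SET1 experiment had 57 of the 63 genes below 0 (90.5%, against 50.4% of all genes) against the wild type of the JHD2 deletion experiment, with a median of -0.28, but 0 genes called by limma (0.388% of all genes were) and 19 at an unadjusted p under 0.05 (30.2%, against 13.5% of all genes). This leaning rests on replicate 2 of the wild type of the SET1 experiment. Without it 33 genes were below 0 and the median was -0.042, and without replicate 1 it was 60 genes and -0.47. UTP4 of UTP-A, with 1342 and 918.7 against 1720, 1763 and 1445, had a difference of -0.56 ± 0.16 (adjusted p 0.176). RRP14, with 1166 and 851.0 on the arrays of the SET1 experiment, had -0.56 ± 0.14 (adjusted p 0.143), and RRP12, with 1834 and 1659, had -0.45 ± 0.11 (adjusted p 0.142). Between the wild types of the overexpression and the SET1 experiment, 2 of the 63 genes were called (3.17%, against 8.11% of all genes), both lower in the former. The median of the 63 genes in that comparison was -0.02, with 29 above 0 and 34 below. The called genes were NOP6, with 934.1 and 980.8 against 1514 and 1212 (-0.50 ± 0.12, adjusted p 0.0311), and GAR1, with 4239 and 4110 against 5572 and 5263 (-0.38 ± 0.10, adjusted p 0.0482). The call of NOP6 was lost without 5 of the arrays and that of GAR1 without 11 of them, the arrays of the overexpression wild type among them in both cases. NOP1, with 5561 and 4641 in the wild type of the SET1 experiment, had -0.44 ± 0.13 (adjusted p 0.0561).

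Other genes of the same pathway, from lists that do not overlap with the 63 genes, had no calls in the 3 comparisons. In the overexpression strain 32 of 36 other small subunit factors were below 0, with a median of -0.28, and 36 of 48 other large subunit factors, with a median of -0.15. The most shifted were ESF1 (-1.20), FYV7 (-0.87) and DHR2 (-0.63) of the small subunit, and LOC1 (-0.86) and URB1 (-0.79) of the large, while SQT1, the chaperone of a large subunit protein, had 0.61. Of 15 genes of RNA polymerase I and its initiation factors 8 were below 0 and 7 above, with a median of -0.09. They ranged from RRN5 at -0.89 to RRN3 at 0.63. Of 10 regulators of the pathway 8 were below 0, with a median of -0.24, and the kinase gene SCH9 (-0.62) and the ribosomal protein gene activator FHL1 (-0.56) were lowest. In the set1 deletion 35 of 36 small and 47 of 48 large subunit factors, and 13 of 15 polymerase I genes, were above 0. The medians of these 3 lists were 0.21, 0.22 and 0.19, with LCP5 (0.64), DBP7 (0.60) and RRN3 (0.86) highest. The lowest polymerase I gene was again RRN5 (-0.53). Of the 10 regulators 5 were above 0 and 5 below, with a median of 0.01. Like the 63 genes, the first 3 lists were low on 1 array: on the wild-type arrays of that experiment their medians relative to each gene's mean were 0.16, 0.14 and 0.14 for replicate 1 and -0.29, -0.24 and -0.28 for replicate 2. In the jhd2 deletion the medians of the same 3 lists were -0.06, -0.02 and -0.04, and that of the regulators was -0.07.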

How the data were processed

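Total RNA from 14 samples was measured on Affymetrix Yeast 2.0 arrays. The deposited values are the intensity of each probe set, not log-transformed, which the authors computed with MAS5 per the submitters' processing notes. The MAS5 version and target value were not stated there. After trimming 2% at each end, array means were 500.2 to 500.3. Precision is limited by the number of arrays.

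Of 10928 probe sets, 5498 named 1 S. cerevisiae gene, 1 named several and 3683 had none, while 1746 were fission yeast's. The brightest probe set was used for the 47 genes with several. Genes whose mean log2 value lay under the 95th percentile of the fission yeast means (34) were left out. Intensities under 1 were set to 1. Group means (6) were modelled over the 14 arrays with limma 3.58.1 under R 4.3.3, using an intensity trend with 4.12 prior and 8 residual degrees of freedom, and the fit was tested on simulated data. Tests are two-sided, with Benjamini-Hochberg adjustment over 5415 genes within each of 9 contrasts. Errors given after ± are the model's standard errors of a log2 change (n as in the groups). Gene names came from the array annotation and a RefSeq gene table.

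The 63 genes and the other lists were chosen with earlier results of these data known. Signals on every array are given by a rule: genes called in any contrast, the 5 highest and 3 lowest changes of each comparison, NOP1, NSR1, PWP2, GAR1, BUD23 and EBP2, and the 3 smallest p of each difference and wild-type contrast. In other lists up to 3 genes with the largest change are named. In the JHD2 deletion experiment, arrays with the same number deviated together from their groups (correlations across genes of 0.64, 0.62 and 0.69). Those of the SET1 experiment did so too (0.73). The reported fit does not use such pairs. A replicate block was an alternative fit, besides other normalizations, filters, a pseudocount of 32, array weights, the arrays of 1 experiment alone, the 3′/5′ ratio as a covariate and each array left out in turn.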

Additional observations from a re-analysis of the deposited data

Results flagged for a closer look

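The change of NOP7 in the set1 deletion and its change with JHD2 overexpression differed by 0.88 on the log2 scale in the test of the difference itself (limma, adjusted p 0.0410). The 2 comparisons share no arrays. The change of NOP7 was 0.26 in the set1 deletion, which did not pass the test, and it fell by 0.62 with overexpression. As given above, the call of the difference was lost on leaving out any 1 of 11 arrays and on centring each array on its median.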

How the results depend on the processing

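Of 1526 values for single genes over 28 alternative settings, 1350 kept their direction and side of the threshold, 50 came to pass it, 92 no longer passed it, 34 changed sign without passing it in either setting, and 0 were called with opposite signs. With overexpression the count of called genes, 2 in the reported fit, was 6 with quantile normalization (9.52%, against 2.23% of all genes). It was 0 with median centring (0.24% of all genes), without the intensity trend (0.203%) and with the 3′/5′ ratio as a covariate (0.536%). Array weights gave 13 (20.6%, against 19.5%), and the arrays of the experiment alone gave 12 (19.0%, against 17.6%). Leaving out 1 array of the JHD2 deletion experiment at a time, which keeps 2 or more per group, gave 0 to 8 called genes with overexpression. Of these, 8 are 12.7%, against 2.90% of all genes. Each deletion had 0, where at most 0.443% of all genes were called. The differences between changes gave 0 to 3 (1 in the reported fit), where 3 are 4.76%, against 1.37% of all genes. The wild types gave 4 to 11, where 11 are 17.5%, against 22.4% of all genes. In the reported fit they gave 9 (14.3%, against 18.4% of all genes). Leaving out an array of another experiment left 1 array in a group, and the wild-type count then ranged more widely. The differences gave 3 genes with quantile normalization (0.554% of all genes), 0 with median centring (0.222% of all genes) and 11 with array weights (17.5%, against 16.2%). The wild types gave 20 with median centring (31.7%, against 20.8%), 23 with array weights (36.5%, against 33.5%) and 17 with the covariate (29.8% of all genes). The median change of the jhd2 deletion was 0.062 with median centring and -0.071 with array weights, and -0.06 to 0.02 with 1 array left out. That of the set1 deletion was -0.032 to 0.39 with 1 array left out, and that of the overexpression -0.29 to -0.15. The cause of these shifts was not tested, beyond the fewer arrays in the last ones.

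With the replicate number as a block, 1 of the 63 genes (PWP2) was called in the set1 deletion (1.59%, against 2.03% of all genes), 15 with overexpression (23.8%, against 20.4%) and 13 for the differences (20.6%, against 15.2%), and the pairing changed no call in the jhd2 deletion. In the SET1 experiment same-numbered arrays correlated at 0.73, no lower than in the JHD2 deletion experiment, and in the overexpression experiment at -0.14. The labels give only a replicate number, so whether these arrays were paired in the laboratory is not known. Within the same-numbered pairs of the SET1 experiment the median of the 63 genes was 0.02 and 0.32, with 39 and 61 genes higher. Crossing the numbers of the overexpression experiment, an alternative chosen after seeing the data, gave 16 called genes (25.4%, against 21.7%). Also chosen then was a fit without both replicate 2 arrays of the SET1 experiment, which leaves 1 array in each of its groups. Another left out the 2 arrays numbered 3 in the JHD2 deletion experiment. It had 0 of the 63 genes called in the jhd2 deletion, against 3.12% of all genes. No paired analysis was possible for the wild types because they belong to different experiments, and the fit on 1 experiment alone does not apply to them or to the differences. Counts of promoter motifs were not run, because no promoter sequence was used here. Groups of 2 or 3 arrays limit what can be called: the median standard error of a change was 0.18 in the set1 deletion and the overexpression comparison and 0.14 in the jhd2 deletion.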

Other observations

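None of the 63 genes has another of them as its nearest neighbour on a chromosome. When the other small and large subunit factors are added, 16 of 147 genes form 8 adjacent pairs, a count that depends on the list. BUD23 (YCR047C) and PWP2 (YCR057C), the lowest 2 changes with JHD2 overexpression, both lie on chromosome III. Of the 5 tested genes between them, YCR051W fell by 1.01 on the log2 scale (limma, adjusted p 0.0358), and the other 4 had changes from -0.40 (RSC6) to 0.14 (CTR86). The 147 tested genes of chromosome III had a median change of -0.08, and 2 were called.

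In the jhd2 deletion 125 of 127 cytosolic ribosomal protein genes were above 0, with a median of 0.25, while the 63 genes had a median of -0.01, and none was called. Within the same-numbered pairs the median of the ribosomal protein genes was 0.36, 0.55 and -0.19, so the third pair went the other way. In the other 2 comparisons the ribosomal protein genes had medians near 0, on the same side as the 63 genes, but not in every same-numbered pair. Their pair medians were -0.003 and 0.06 in the set1 deletion and -0.09 and 0.002 with overexpression. All tested genes had medians of 0.02 and 0.00 in these 2 comparisons. In the set1 deletion 106 of 127 were above 0 with a median of 0.04, and with overexpression 81 were below 0 with a median of -0.04, the lowest being RPL41A at -0.86.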
